A study of Homo sapiens with 414 samples.

Results

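The genes described here are 10 enzymes that make, activate or inactivate androgens, or are close relatives of such enzymes, and they were chosen by name from the 36135 genes of the count table. All 10 were found, and all 10 passed the filter on low counts together with 20326 genes in total. They are the glucuronosyltransferases UGT2B11, UGT2B15, UGT2B17 and UGT2B28, the hydroxysteroid dehydrogenases HSD17B4, HSD17B6 and HSD3B1, the aldo-keto reductase AKR1C3, and the steroid reductase family members SRD5A1 and SRD5A3. They were measured in LNCaP, an androgen-responsive line from a human prostate carcinoma, 48 h after transfection with a non-targeting siRNA bought from Dharmacon (control) or with 1 siRNA against the sterol sulfotransferase SULT2B1 bought from IDT (knockdown). Arm and supplier of the siRNA therefore cannot be told apart. Of the 414 samples of the series, 401 single cells entered, in 3 batches: 76, 66 and 67 control cells and 66, 65 and 61 knockdown cells.

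Androgens are steroid hormones that drive the growth of prostate cells, and the amount of active hormone in a prostate cell depends on enzymes that form it and enzymes that remove it. HSD3B1 and AKR1C3 carry adrenal precursors towards testosterone, SRD5A1 reduces steroids in the A ring on the way to dihydrotestosterone, and HSD17B6 can return an inactive metabolite to dihydrotestosterone. UGT2B15 and UGT2B17 attach glucuronic acid to testosterone metabolites and dihydrotestosterone, which makes them water soluble and inactive, and transcription of both genes is known to be repressed by androgens in LNCaP cells.

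The 4 UGT2B genes lie in 1 cluster on chromosome 4 and resemble each other so closely that reads from some stretches fit more than 1 gene. The coding sequences of UGT2B15 and UGT2B17 were 96.5% identical over 1590 aligned bases, with a longest identical run of 199 bases. UGT2B11 and UGT2B28 were 97.0% identical over 1587 aligned bases, with a longest identical run of 110 bases. Between these pairs, UGT2B15 and UGT2B11 were 84.6% identical. UGT2B10, a further member of the cluster that conjugates amines, was identical to UGT2B11 at 1505 of 1584 aligned bases. The stretches of 90 coding bases below, from exon 1 on GRCh38 with GENCODE 29 transcripts, are the window in which the less divergent of both pairs differs at the most bases, so that reads can be told apart there. They are written in the direction of the gene, and capitals mark bases that differ from the nearest relative (UGT2B15 and UGT2B17 from each other, UGT2B11 and UGT2B28 from each other, UGT2B10 from UGT2B11).
UGT2B15, chr4:68670094-68670183, minus strand: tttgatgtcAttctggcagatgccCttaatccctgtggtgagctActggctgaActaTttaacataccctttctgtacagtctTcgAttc
UGT2B17, chr4:68567960-68568049, minus strand: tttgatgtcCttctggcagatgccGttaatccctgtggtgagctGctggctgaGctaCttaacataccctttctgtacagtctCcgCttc
UGT2B11, chr4:69214201-69214290, minus strand: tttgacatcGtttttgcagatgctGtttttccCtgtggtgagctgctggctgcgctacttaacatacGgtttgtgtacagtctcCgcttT
UGT2B28, chr4:69280933-69281022, plus strand: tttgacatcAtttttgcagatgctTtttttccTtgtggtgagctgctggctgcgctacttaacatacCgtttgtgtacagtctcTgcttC
UGT2B10, chr4:68816449-68816538, plus strand: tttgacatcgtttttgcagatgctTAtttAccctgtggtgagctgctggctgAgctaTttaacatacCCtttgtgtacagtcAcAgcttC

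In this window UGT2B15 and UGT2B17 differed at 7 bases, UGT2B11 and UGT2B28 at 6, and UGT2B10 and UGT2B11 at 10. The next stretches, also 90 bases long and from exon 2, are shown because they are the opposite case, in which a read cannot be assigned or rests on a single base. Capitals have the same meaning.
UGT2B15, chr4:68668091-68668180, minus strand: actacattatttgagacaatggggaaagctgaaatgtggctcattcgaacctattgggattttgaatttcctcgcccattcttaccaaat
UGT2B17, chr4:68565623-68565712, minus strand: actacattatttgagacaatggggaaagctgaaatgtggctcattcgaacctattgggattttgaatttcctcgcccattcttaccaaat
UGT2B11, chr4:69212624-69212713, minus strand: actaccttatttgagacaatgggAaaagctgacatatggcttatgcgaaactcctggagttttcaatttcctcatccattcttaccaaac
UGT2B28, chr4:69282522-69282611, plus strand: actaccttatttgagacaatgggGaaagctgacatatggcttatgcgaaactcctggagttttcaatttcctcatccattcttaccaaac

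Here UGT2B15 and UGT2B17 differed at 0 bases, and UGT2B11 and UGT2B28 at 1. Over whole transcripts, 40.9% of the words of 50 bases in UGT2B11 also occurred in another annotated gene, compared with 35.7% in UGT2B28, 27.8% in UGT2B15 and 27.8% in UGT2B17. For UGT2B15 and UGT2B17 the partner was the other of the pair, with 27.5% of words. For UGT2B11 the partners were the pseudogene UGT2B25P (22.4%), UGT2B28 (18.1%), the pseudogene UGT2B24P (13.7%) and UGT2B10 (9.76%). The remaining members shared less: AKR1C3 shared 12.1% of its words, mainly with AKR1C2 and AKR1C1, HSD3B1 8.42%, SRD5A1 1.12% and SRD5A3 0.773%, and HSD17B4 and HSD17B6 shared 0. All these shares are for words of 50 bases, while the read length is not given. With words of 25 bases the shares were 70.0% for UGT2B11, 65.8% for UGT2B28, 46.8% for UGT2B15 and 45.6% for UGT2B17. With words of 100 bases they were 9.3%, 5.71%, 12.7% and 12.7% in the same order, so the order of the pairs reversed. How reads that fit several genes were treated in the deposited counts is not given in the sources used here, so the values of single UGT2B genes are uncertain to the extent that such reads were dropped or assigned to a relative.

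Summing the cells within a batch and arm gave 3 control and 3 knockdown libraries of 71630108 to 84359044 reads. Cells had 169244 to 2353816 reads each, with a median of 1150826. SULT2B1, the targeted gene, was at 152, 109 and 332 reads in control and at 13, 21 and 0 reads in knockdown. Its log2 fold change was -4.13 (SE 1.43), with an adjusted p of 0.268 in the edgeR quasi-likelihood test and 0.0156 in DESeq2. In edgeR, 158 of the 20326 genes (0.777%) had an adjusted p below 0.05, 80 of them higher and 78 lower in knockdown. The labels name only batches, so the p-values measure the spread between batch libraries, which may be technical. Luminal markers summed to 4535 to 6128 CPM (counts scaled to library size) in control and 4299 to 5698 in knockdown, and basal markers to at most 1.21 CPM. The luminal sum came mostly from STEAP2 and FOLH1, at means of 3342 and 897 CPM in control. Of the 10 luminal markers, KRT8, KRT18 and CDH1 lay higher and GATA2 lower in all knockdown libraries, and the rest overlapped. The same held for 10.5% and 10.1% of all tested genes, and edgeR called 0 luminal markers. More than 20% of reads were mitochondrial in 35 of 209 control cells and 8 of 192 knockdown cells.

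Divided by the length of merged exons, the main androgen-inactivating enzymes had the highest levels in control, but their rank depended on this division. On a scale of CPM per kilobase of merged exons, the control level was 67.3 ± 26.3 (SD, n = 3) for UGT2B17 and 50.6 ± 9.61 for UGT2B15. HSD17B4 followed at 21.4 ± 0.842, UGT2B11 at 11.4 ± 2.996 and SRD5A3 at 7.84 ± 3.24. SRD5A1 at 2.92 ± 0.351, UGT2B28 at 2.91 ± 1.19 and HSD17B6 at 1.38 ± 1.17 were lower. The lowest levels were those of the synthetic enzymes AKR1C3, at 0.593 ± 0.0380, and HSD3B1, at 0.108 ± 0.187. In this order, neighbours whose ranges of mean ± SD overlapped were UGT2B17 and UGT2B15, UGT2B11 and SRD5A3, SRD5A1 and UGT2B28, UGT2B28 and HSD17B6, and HSD17B6 and AKR1C3. Merged exons covered 10.7 kb for HSD17B4 and 2.08 kb each for UGT2B15 and UGT2B17. The HSD17B4 transcript used for shared words had 2881 bases. Without division by length, HSD17B4 was the highest member in control, at a mean of 228 CPM. UGT2B17 was at 140 CPM and UGT2B15 at 105 CPM.

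None of the 10 members passed an adjusted p of 0.05 in edgeR. At an unadjusted edgeR p below 0.05 there were 2, UGT2B11 and SRD5A1, both lower in knockdown, where 13.5% of all tested genes met that limit in either direction. DESeq2 called 1 member, UGT2B11, and 7.09% of all tested genes, where genes to which it gave no adjusted p count as not called. In CPM, the 3 knockdown libraries lay below the 3 control libraries for 3 members, UGT2B11, UGT2B28 and SRD5A1, and above them for 1, AKR1C3; the same held for 10.1% and 10.5% of all tested genes. The median log2 fold change of the members was -0.25, beside 0.01 for all tested genes. The count of members above is near the background, and the count below rests on few genes, of which UGT2B11 and UGT2B28 share sequence.

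**Figure D1:**
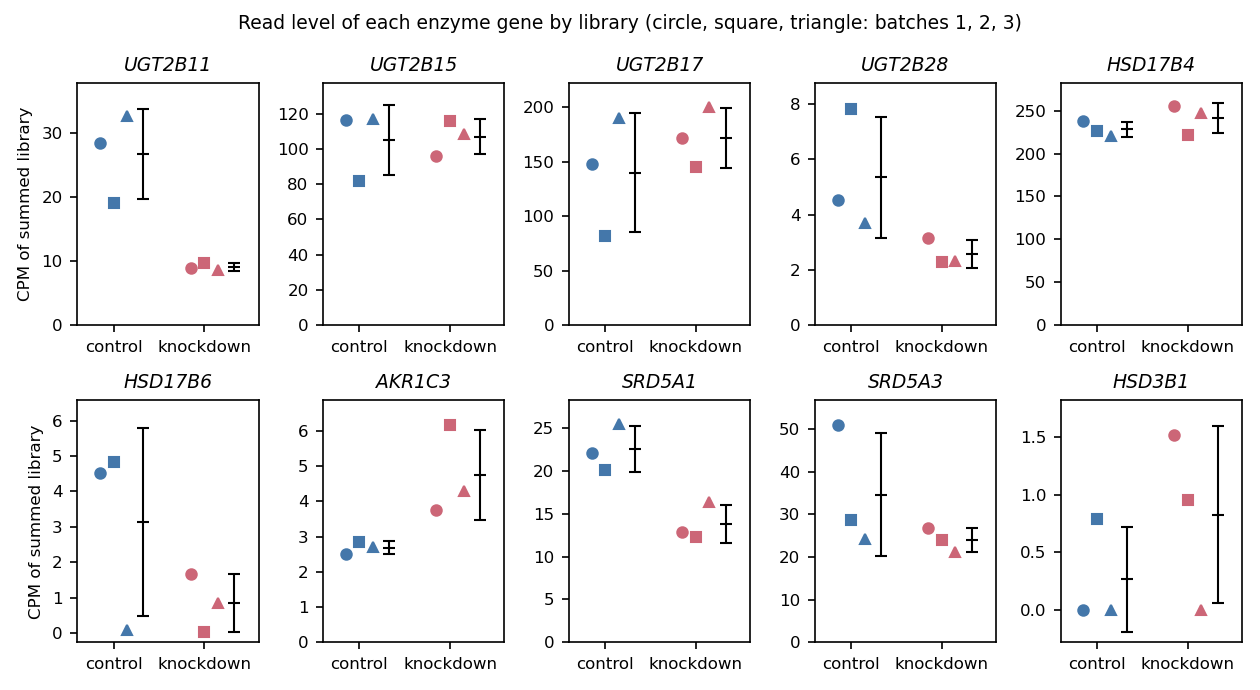
CPM of the 10 enzyme genes in the 3 control (blue) and 3 knockdown (red) libraries, on a linear axis for each gene, with the marker shape giving the batch and the black bar the mean ± SD of 3 libraries. The control and knockdown points are separate for UGT2B11, UGT2B28, SRD5A1 and AKR1C3 and overlap for the other 6 genes.

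UGT2B11 (ENSG00000213759, GRCh38 chr4:69199951-69214731) is a glucuronosyltransferase known to conjugate hydroxylated fatty acids. It had 28.5, 19.0 and 32.7 CPM in the control libraries of batches 1, 2 and 3, from 2091, 1388 and 2536 reads. The knockdown libraries had 8.90, 9.70 and 8.55 CPM, from 713, 718 and 732 reads. Each knockdown library was thus below each control library, and the knockdown libraries were close to one another. The means were 26.7 ± 7.01 and 9.05 ± 0.589 CPM (SD, n = 3 each), a log2 fold change of -1.56 (SE 0.278). The unadjusted p of 0.000669 became 0.0619 after edgeR's adjustment over all tested genes. It was 7.08e-06 in DESeq2, 0.0380 in edgeR without the filter on low counts, 0.182 in edgeR with batch as a block, and between 7.08e-06 and 0.197 over all 13 alternatives. Within batches the difference in log2(CPM + 1) was -1.57, -0.90 and -1.82. Without the cells above 20% mitochondrial reads the log2 fold change was -1.76, with an edgeR adjusted p of 0.0424.

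The reads of UGT2B11 came from a minority of cells. The gene was seen in 28 of 76, 25 of 66 and 22 of 67 control cells (36.8%, 37.9% and 32.8%), and in 18 of 66, 11 of 65 and 18 of 61 knockdown cells (27.3%, 16.9% and 29.5%). The shares did not overlap, with means of 35.9 ± 2.66% and 24.6 ± 6.71%, and the 2-sided exact permutation p was 0.1, the smallest that 3 against 3 libraries allow, and 0.25 after adjustment over the 10 members. The intervals of single libraries were wide, for example 26.1% to 48.7% in control batch 1 and 8.76% to 28.3% in knockdown batch 2 (exact Clopper-Pearson, 95%, counting error only). At a common depth of 100000 reads per cell the expected shares were 22.2 ± 1.70% and 14.6 ± 2.79%, again without overlap. Among cells with a read, the mean level was 62.4, 43.1 and 110 CPM in the control libraries and 33.5, 58.4 and 28.1 CPM in the knockdown libraries, which overlapped. A single cell gave 44.5% of the UGT2B11 reads of control batch 1 and 40.3% of those of knockdown batch 3, so that the summed level leans on few cells.

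UGT2B28 (ENSG00000135226, chr4:69280499-69295050), an androgen-conjugating enzyme next to UGT2B11, was rarer. The control libraries had 4.52, 7.82 and 3.68 CPM and the knockdown libraries 3.15, 2.27 and 2.31 CPM. The ranges did not overlap, but the nearest control and knockdown libraries were close. The log2 fold change was -1.05 (SE 0.468), with an edgeR adjusted p of 0.392, and it was -0.67 without control batch 2. Reads were found in 24 of 209 control cells and 19 of 192 knockdown cells, and the shares per library overlapped (11.4 ± 2.19% and 9.81 ± 3.58%). One cell held 69.2% of the reads of control batch 3 and 66.1% of those of knockdown batch 2.

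UGT2B15 (ENSG00000196620, chr4:68646630-68670628), a main enzyme of dihydrotestosterone glucuronidation, had 117, 82.0 and 117 CPM in control and 96.1, 116 and 109 CPM in knockdown. The lowest library was control batch 2, and the arms overlapped. The log2 fold change was 0.03 (SE 0.175; edgeR adjusted p = 0.978), and its sign differed in 2 of 13 alternatives. The share of cells with a read was 63.2%, 71.2% and 77.6% in control and 80.3%, 80.0% and 78.7% in knockdown. Those shares did not overlap (means 70.7 ± 7.24% and 79.7 ± 0.858%; exact permutation p = 0.1, adjusted 0.25), although the nearest ones were 77.6% and 78.7%. Among cells with a read the mean level was 135 ± 27.7 CPM in control and 135 ± 11.6 CPM in knockdown.

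UGT2B17 (ENSG00000197888, chr4:68537184-68568527), which conjugates testosterone and dihydrotestosterone, had 148, 81.8 and 190 CPM in control and 172, 145 and 200 CPM in knockdown. Batch 2 was the lowest in both arms, and the arms overlapped. The log2 fold change was 0.30 (SE 0.294; edgeR adjusted p = 0.761), and within batches log2(CPM + 1) differed by 0.22, 0.82 and 0.07. Without control batch 2 the log2 fold change was 0.03. Reads were found in 142 of 209 control cells and 142 of 192 knockdown cells. The shares per library, 68.3 ± 8.66% and 74.1 ± 5.67%, overlapped (exact permutation p = 0.4, adjusted 0.571). With cells thinned to 100000 reads they were 51.4 ± 5.51% and 60.3 ± 3.40%, without overlap (exact permutation p = 0.1, the smallest possible, not adjusted).

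Because reads can move between the paralogs, the family was also read as shares of its own total and as sums. UGT2B11 made up 9.58%, 9.96% and 9.52% of the reads of the 4 UGT2B genes in control and 3.18%, 3.55% and 2.67% in knockdown. The values within each arm were within 1 percentage point, and the arms did not overlap (exact permutation p = 0.1, the smallest possible; 0.267 adjusted over the 4 genes). The share of UGT2B17 was 49.3 ± 6.26% in control and 59.0 ± 5.17% in knockdown, that of UGT2B15 38.8 ± 4.53% and 37.0 ± 4.82%, and that of UGT2B28 2.23 ± 1.64% and 0.893 ± 0.208%. These 3 overlapped between arms. When each cell with at least 10 reads in the family had equal weight, the difference in share (knockdown minus control) was -3.30 points for UGT2B11, still without overlap, in place of -6.55. For UGT2B17 it was 0.42 in place of 9.68, and for UGT2B15 (2.14 in place of -1.79) and UGT2B28 (0.74 in place of -1.34) the sign changed. The sum of all 4 genes was 277 ± 78.3 CPM in control and 291 ± 25.2 CPM in knockdown, with a log2 fold change of 0.07 (SE 0.211; edgeR adjusted p = 0.943).

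**Figure D2:**
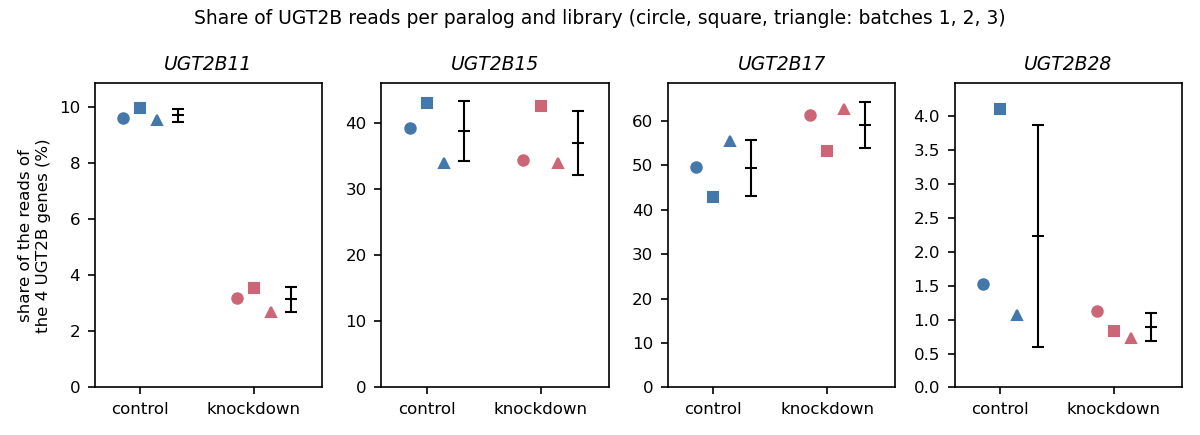
Share of each gene in the summed reads of UGT2B11, UGT2B15, UGT2B17 and UGT2B28, per library (points, shape by batch) with mean ± SD of 3 libraries. UGT2B11 lies at 9.52% to 9.96% in control and 2.67% to 3.55% in knockdown, while the points of the other 3 genes overlap between arms.

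Sums over the near-identical pairs, chosen after the data had been seen, do not move when reads swap within a pair. UGT2B15 plus UGT2B17 had 264, 164 and 307 CPM in control and 268, 261 and 309 CPM in knockdown (log2 fold change 0.19, SE 0.223, edgeR adjusted p = 0.819), and without control batch 2 the log2 fold change was -0.03. UGT2B11 plus UGT2B28 had 32.97, 26.8 and 36.4 CPM in control and 12.1, 12.0 and 10.9 CPM in knockdown. The second sum was separate between arms, with a log2 fold change of -1.46 (SE 0.224) and an edgeR adjusted p of 0.0374, which became 0.154 with batch as a block. The call was also lost when any 1 library was left out (log2 fold change -1.58 to -1.37, edgeR adjusted p from 0.0771 without control batch 2 to 0.152 without knockdown batch 3) and with equal weight per cell (limma adjusted p = 0.0784). Without cells above 20% mitochondrial reads the edgeR adjusted p was 0.0210. The difference between the 2 sums was not tested.

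UGT2B10 (ENSG00000109181, chr4:68815993-68831196) shares words with UGT2B11 and was lower in knockdown as well, at 11.7 ± 4.46 and 3.31 ± 2.53 CPM, without overlap (log2 fold change -1.82, SE 0.647, edgeR adjusted p = 0.281, DESeq2 adjusted p = 0.0489). It had reads in 41 of 209 control cells and 19 of 192 knockdown cells. The pseudogenes that share most with UGT2B11 had few reads of their own: UGT2B25P had 53, 0 and 2 in control and 0, 1 and 0 in knockdown, and UGT2B24P had 18, 0 and 7 and then 0, 1 and 5. UGT2B4 (2.15 ± 2.31 and 2.24 ± 2.44 CPM) and UGT2B7 (0.458 ± 0.500 and 1.17 ± 0.798 CPM), both known to conjugate steroids, overlapped between arms. Along the cluster, UGT2B17 and UGT2B15 are neighbours, and UGT2B11 and UGT2B28 start 663 and 743 kb from UGT2B17 by their lower coordinates, and UGT2B10, at 279 kb, lies between both pairs.

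**Figure D3:**
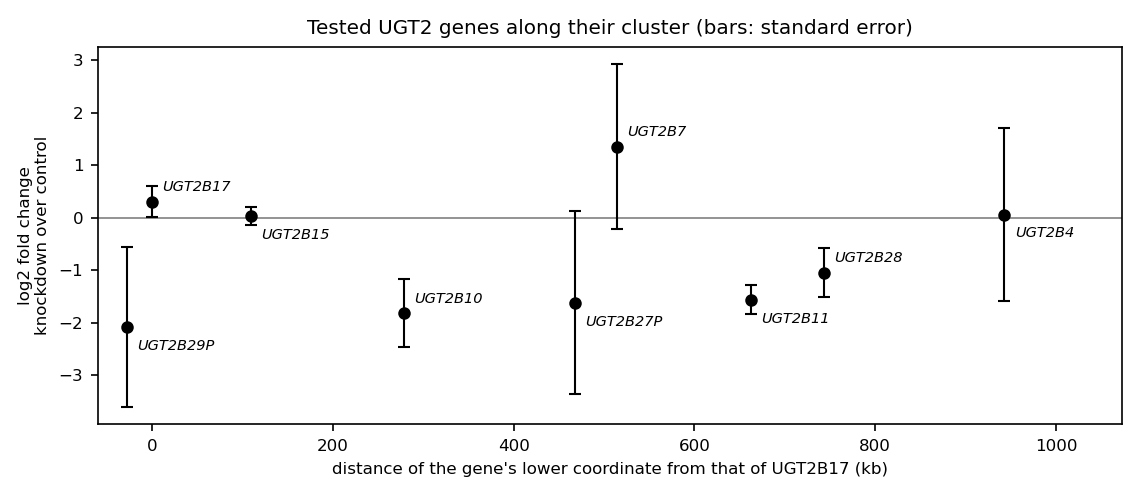
Log2 fold change (knockdown over control, vertical axis, bars are the standard error of the fit to 3 libraries per arm) of the 9 tested UGT2 genes and pseudogenes against the distance of each gene from UGT2B17 in kilobases. UGT2B17 and UGT2B15 sit at 0.30 and 0.03, UGT2B10, UGT2B11 and UGT2B28 at -1.82, -1.56 and -1.05, and the genes with few reads have wide bars.

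Within single control cells the UGT2B genes varied together. The mean over batches of Spearman's rho of log2(CPM + 1) was 0.725 for UGT2B15 with UGT2B17, 0.564 for UGT2B11 with UGT2B15 and 0.496 for UGT2B11 with UGT2B17, over 66 to 76 cells a batch. Among genes with a read in at least 20% of control cells, these were the nearest genes to each other, and the third nearest were well below, namely AJUBA for UGT2B11 (0.386), HMGB1P6 for UGT2B15 (0.366) and ADGRG6 for UGT2B17 (0.364). UGT2B10, with reads in fewer cells than that limit, had a rho of 0.597 with UGT2B11. In knockdown cells rho was 0.712 for UGT2B15 with UGT2B17, 0.331 for UGT2B11 with UGT2B15 and 0.218 for UGT2B11 with UGT2B17; the difference between arms was not tested. The cells of a batch share a library, depth also varies across them (rho of UGT2B11 with the number of genes with a read was 0.286 in control), and shared sequence can add to these values, so they are given as a description. Both UGT2B15 and UGT2B17 had a read in 118 of 209 control cells and neither in 38, and both in 126 of 192 knockdown cells and neither in 23. Of the control cells with UGT2B11 reads, 63 also had UGT2B17 reads and 12 had none, compared with 38 and 9 in knockdown.

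**Figure D4:**
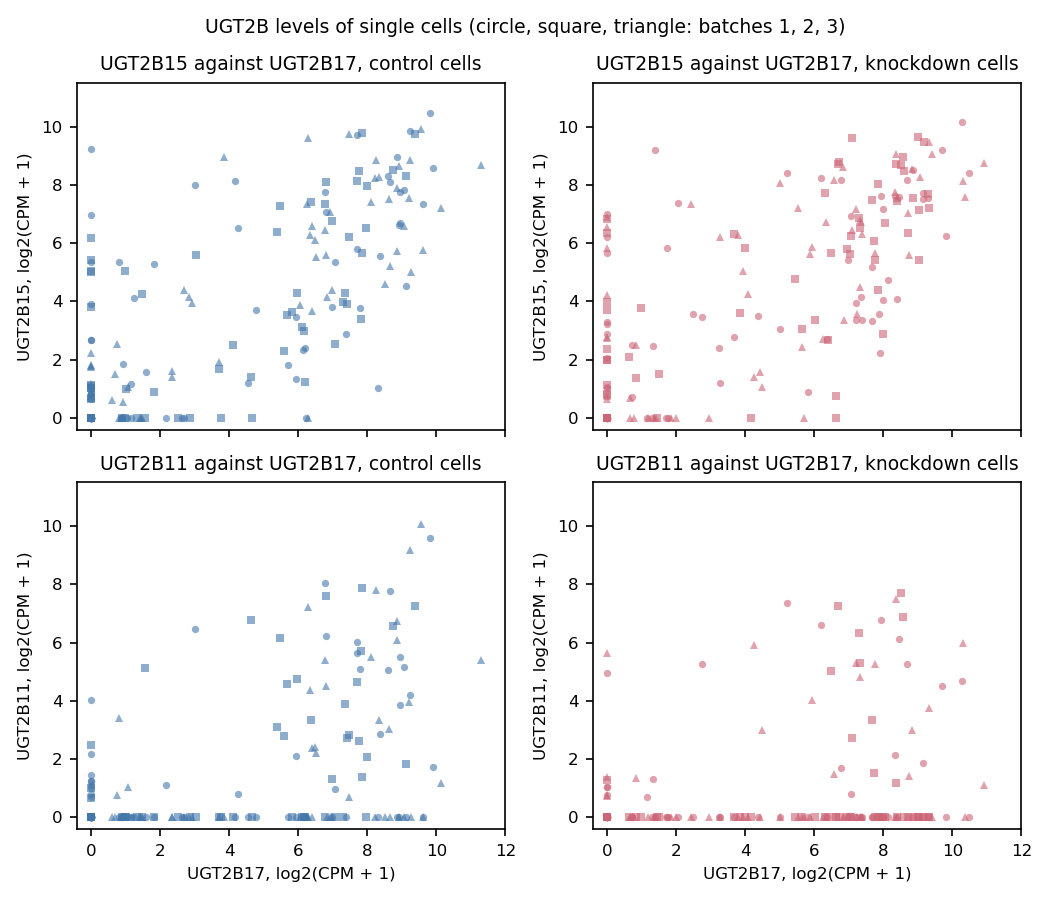
Levels of UGT2B15 (upper row) and UGT2B11 (lower row) against UGT2B17 in single cells, as log2(CPM + 1), for 209 control cells (left, blue) and 192 knockdown cells (right, red), with the marker shape giving the batch. UGT2B15 follows UGT2B17 in both arms, and most cells lie at 0 for UGT2B11, with 75 control and 47 knockdown cells above it.

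Among enzymes that act before glucuronidation, SRD5A1 (ENSG00000145545, chr5:6633343-6674386), a steroid reductase that leads towards dihydrotestosterone, was separate between arms. It had 22.1, 20.1 and 25.4 CPM in control and 12.9, 12.3 and 16.3 CPM in knockdown. The lowest control library exceeded the highest knockdown library, and within batches log2(CPM + 1) differed by -0.74, -0.66 and -0.61. The log2 fold change was -0.70 (SE 0.242), with an unadjusted edgeR p of 0.0211 and an adjusted p of 0.259 (0.0593 in DESeq2, which was the lowest over the alternatives; the highest was 0.476). Reads were found in 58.1 ± 4.39% of control cells and 52.6 ± 2.46% of knockdown cells, and these shares overlapped. With cells thinned to 100000 reads they were 39.8 ± 4.14% and 32.5 ± 1.84%, without overlap.

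SRD5A3 (ENSG00000128039, chr4:55346109-55373096) belongs to the same family but is best known for reducing polyprenol to dolichol, the lipid carrier of protein glycosylation. It had 51.0, 28.6 and 24.4 CPM in control and 26.8, 24.0 and 21.3 CPM in knockdown. Control batch 1 stood above the other 5 libraries, whose arms overlapped, and 1 cell gave 23.9% of its reads. The log2 fold change was -0.53 (SE 0.310; edgeR adjusted p = 0.540), and it was -0.15 without control batch 1. The share of cells with a read was 80.8 ± 2.06% in control and 72.1 ± 13.7% in knockdown, where batch 2 was low at 56.9%. These shares overlapped (exact permutation p = 0.4, adjusted 0.571). After thinning they were 57.3 ± 3.51% and 46.5 ± 5.77%, without overlap (exact permutation p = 0.1, the smallest possible, not adjusted).

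HSD17B4 (ENSG00000133835, chr5:119452443-119637199), a peroxisomal enzyme that oxidises hydroxysteroids and takes part in the breakdown of very long fatty acids, was found in nearly every cell. It had 238, 226 and 220 CPM in control and 256, 222 and 247 CPM in knockdown, with reads in 203 of 209 and 189 of 192 cells. The arms overlapped (log2 fold change 0.08, SE 0.106, edgeR adjusted p = 0.839). Its nearest genes across control cells were CYLD, AK4P3 and WDR48, none with a rho above 0.350. For SRD5A1 they were RDH10 (0.333), TOM1L2 and APC, and for SRD5A3 RPL5, RPF2 (0.355 each) and BSG-AS1. Such values are weak in sparse counts.

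AKR1C3 (ENSG00000196139, chr10:5035354-5107686), which reduces androstenedione to testosterone, was the member whose libraries were all higher in knockdown. It had 2.50, 2.84 and 2.72 CPM in control and 3.76, 6.17 and 4.30 CPM in knockdown. Control libraries were within a narrow range and knockdown batch 2 was the highest. The means were 2.69 ± 0.172 and 4.74 ± 1.27 CPM, with a log2 fold change of 0.82 (SE 0.427) and an edgeR adjusted p of 0.483. Reads were found in 10, 4 and 3 control cells and 9, 12 and 11 knockdown cells. As shares these were 13.2%, 6.06% and 4.48% in control and 13.6%, 18.5% and 18.0% in knockdown, which did not overlap (exact permutation p = 0.1, adjusted 0.25). In batch 1 the shares of 13.2% and 13.6% were nearly equal, and the separation came from batches 2 and 3. One cell held 83.4% of the AKR1C3 reads of control batch 3. AKR1C2 and AKR1C1, the relatives that share words with it, were at 0.997 ± 0.460 and 0.807 ± 0.908 CPM in control and 1.79 ± 0.672 and 2.38 ± 0.997 CPM in knockdown, overlapping between arms.

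HSD17B6 (ENSG00000025423, chr12:56752161-56787790), the enzyme that can oxidise androstanediol back to dihydrotestosterone, was at 331, 354 and 7 reads in control and at 133, 2 and 73 reads in knockdown. The arms overlapped, and the log2 fold change of -1.89 (SE 1.55; edgeR adjusted p = 0.696) had opposite signs within batches, with differences in log2(CPM + 1) of -1.05, -2.51 and 0.76. Reads were found in 9, 7 and 5 control cells and in 3, 1 and 1 knockdown cells. The shares of cells, 9.97 ± 2.26% and 2.57 ± 1.71%, did not overlap (exact permutation p = 0.1, adjusted 0.25), but they did overlap after thinning to 100000 reads (4.75 ± 3.39% and 1.66 ± 1.44%). One cell held 80.8% of the reads of control batch 2.

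HSD3B1 (ENSG00000203857, chr1:119507198-119515054), which converts dehydroepiandrosterone to androstenedione, was found in 1 control cell of batch 2, with 58 reads, and in 1 knockdown cell each of batches 1 and 2, with 122 and 71 reads. In control batches 1 and 3 and knockdown batch 3, 0 of 76, 0 of 67 and 0 of 61 cells had a read, which allows shares of cells with a read of up to 3.95%, 4.48% and 4.92% by the limit of 3 cells over the number of cells. The exact 95% intervals, which the plot of shares uses, end at 4.74%, 5.36% and 5.87%. With reads in so few cells, no change in HSD3B1 could be assessed.

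Over all 10 members, the shares of cells with a read were all higher in knockdown for 2, UGT2B15 and AKR1C3, and all lower for 2, UGT2B11 and HSD17B6. Among all tested genes the corresponding shares were 15.3% and 5.85%, so more genes were found in more cells in knockdown than the reverse. The higher count is near its background. After thinning to 100000 reads per cell 6 members did not overlap: UGT2B15, UGT2B17 and AKR1C3 were higher, and UGT2B11, SRD5A1 and SRD5A3 lower, in all knockdown libraries. The shares of all tested genes above are for unthinned cells and were not computed at this depth. The count of 6 therefore has no background and cannot be read as particular to the members.

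**Figure D5:**
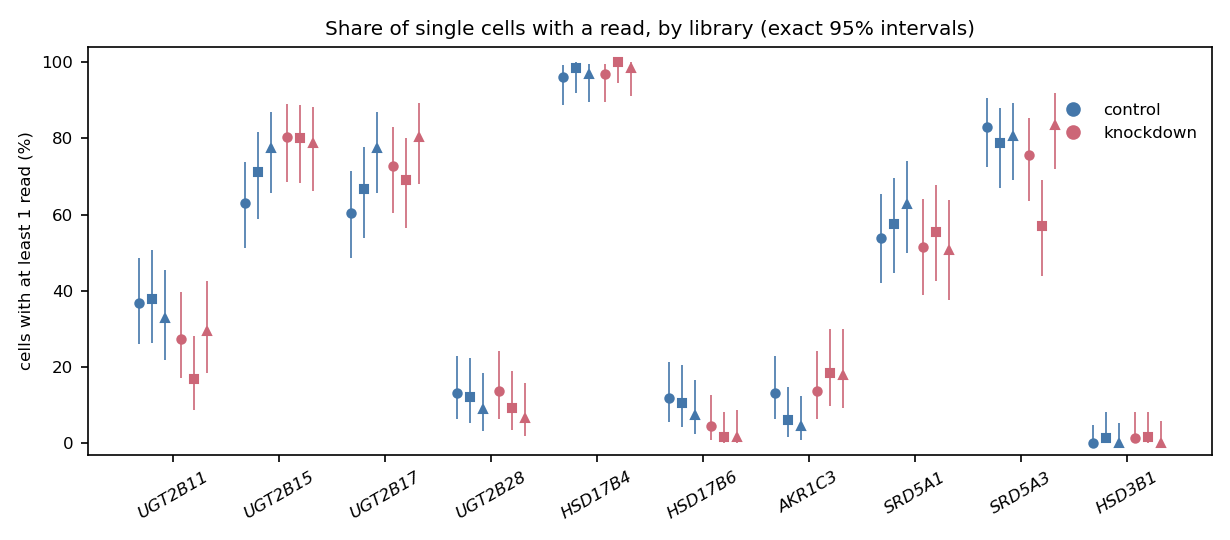
Percentage of single cells with at least 1 read for each enzyme gene, per library (control blue, knockdown red, shape by batch), with exact 95% intervals that cover counting error only. The shares do not overlap between arms for UGT2B11, UGT2B15, HSD17B6 and AKR1C3, although many intervals of single libraries reach across the arms.

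The remaining steroid pathway was described through a list of 68 further genes, of which 62 were in the table and 36 were tested. None passed an adjusted p of 0.05 in edgeR; at an unadjusted edgeR p below 0.05, 4 were higher (HSD17B10, UGDH, STS and CYP3A5) and 4 lower (ABCC4, SULT2B1, UGT2B10 and HSD17B11), beside 13.5% of all tested genes in either direction. DESeq2 called 5, beside 7.09% of all tested genes, and the median log2 fold change was 0.11. SULT2B1 is the target of the siRNA, so its place among the 4 lower genes and the 5 DESeq2 calls follows from the design. HSD17B10, a mitochondrial dehydrogenase that oxidises steroids among other substrates, was at 77.4 ± 6.02 CPM in control and 114 ± 13.1 CPM in knockdown (log2 fold change 0.56, SE 0.142, edgeR adjusted p = 0.139). UGDH, which makes the glucuronate donor that all UGT enzymes use, was at 103 ± 15.4 and 140 ± 24.3 CPM (edgeR adjusted p = 0.326). STS, the sulfatase that frees steroids from sulfate, was at 4.99 ± 1.11 and 17.3 ± 15.1 CPM (log2 fold change 1.79, edgeR adjusted p = 0.260). Knockdown batch 3, at 34.7 CPM, stood above the others at 9.63 and 7.51 CPM, and without it the log2 fold change of STS was 0.78. ABCC4, an exporter of conjugated steroids that also belongs to the list of androgen-responsive genes, was at 310 ± 41.6 and 160 ± 42.1 CPM (log2 fold change -0.96, SE 0.212, edgeR adjusted p = 0.106). DESeq2 called these except UGDH, and also SULT2B1 and UGT2B10. CYB5A, a cofactor of the lyase step of androgen synthesis and the list's most abundant gene in CPM, was at 666 ± 65.7 and 753 ± 8.80 CPM (edgeR adjusted p = 0.523). PAPSS1, HSD17B12, HSD17B7, FDX1, UGP2 and SULT1A1 had edgeR adjusted p-values between 0.497 and 0.964.

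The same libraries were read for genes known to respond to androgens. Of 11 listed, 0 were higher and 2 lower at an edgeR adjusted p below 0.05, the kallikreins KLK3 and KLK2. Of all 20326 tested genes, 80 were higher and 78 lower at that limit. At an unadjusted edgeR p below 0.05, 7 of the 11 were lower, as were 1439 of all 20326 tested genes. The list was chosen with earlier results of these data known, so these counts are a description and not independent of the data. The median log2 fold change was -1.06, and the summed level of the list was 4025 to 4934 CPM in control and 1463 to 2855 CPM in knockdown, with 0 of its genes at 0 in all libraries. KLK3, which encodes prostate-specific antigen, was at 798 ± 200 CPM in control and 280 ± 71.0 CPM in knockdown (log2 fold change -1.51, edgeR adjusted p = 0.0416, 0.154 with batch as a block). KLK2 was at 109 ± 16.9 and 45.6 ± 8.57 CPM (log2 fold change -1.26, edgeR adjusted p = 0.0446, 0.0703 with the block). Each of these calls was lost when any 1 library was left out, with edgeR adjusted p-values of up to 0.160 for KLK3 and 0.153 for KLK2. Across control cells the mean rho of UGT2B11 over batches was -0.076 with KLK3. Whether the lower level of these genes had a part in the values of UGT2B11, SRD5A1 or the other members was not tested.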

How the data were processed

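The authors deposited counts of reads for each gene in each cell, as whole numbers that carry no molecular identifiers and no normalization. The tools named, per the submitters' processing notes, are HTSeq 0.6.1, TopHat2 2.1.0, edgeR 3.2.2 and FastQC 0.11.3, with the build GRCh38.p3. Not given in the sources used here: annotation release, strand setting and read length. Per the labels' protocols, capture sites of the Fluidigm C1 plate were inspected so that empty sites, doublets and dead cells stayed out, and no doublet caller was run. Columns were matched to samples by the names in the labels, which left 4 value columns unused. Samples labelled as multiple cells, a sample without an assigned arm and labelled cells without a matching column did not enter. The titles also name knockdown cells of batch 1 as repeated in the sequencing of batch 2.

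The cells of a batch and arm were added up, and the sums were tested with the edgeR 4.0.16 quasi-likelihood method (limma 3.58.1, R 4.3.3), with TMM scaling, robust dispersions, filterByExpr at a minimum count of 10 and a common dispersion of 0.497. P-values of 20326 genes were adjusted by Benjamini-Hochberg. Fold changes are knockdown over control, and CPM values use the TMM library sizes. The labels' batch number pairs the libraries. Deviations from the arm's mean correlated between same-numbered libraries at 0.078, 0.000547 and 0.000233. Values with batch as a block are printed where a call changes. DESeq2 1.42.0, other scalings, no filter, equal weight per cell, each library left out and cells above 20% mitochondrial reads left out were alternatives. The fit was tested on simulated data.

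Shares of cells were reduced to 1 value per library and compared by 2-sided exact permutation tests. Thinned shares are the expected values at 100000 reads per cell. Shared words and coding identity (aligned with mafft 7.526) come from GENCODE 29 transcripts. Python 3.11.15, numpy 2.4.6, scipy 1.17.1 and pandas 2.3.3 were used.

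The members and the gene lists were chosen with earlier results of these data known, and 1 listed gene is not reported here. All members and SULT2B1 are named, then called genes of the pathway list and its 10 most abundant, and the 3 nearest genes of each member with a read in at least 20% of control cells. Other pathway genes and KLK2 and KLK3 are named after their values were seen, because DESeq2 or edgeR called them or because they bear on a member. Besides the lists in the report, summed markers stayed at or below 0.459 CPM for neuroendocrine, 31.8 CPM for mesenchymal, 11.2 CPM for blood and endothelial and 12.9 CPM for liver genes in each library.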

Additional observations from a re-analysis of the deposited data

How the results depend on the processing

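The number of genes called by edgeR, 158, was 1442 with DESeq2, 309 without the filter on low counts, 242 with equal weight per cell and 46 to 69 with 1 library left out. With batch as a replicate block, which uses the pairing of the libraries, it was 38. The number of members called, 0, was 1 with DESeq2, 1 without the filter and 1 without cells above 20% mitochondrial reads, each time UGT2B11. The number of steroid pathway genes called, 0, was 5 with DESeq2 (the siRNA target SULT2B1 among them) and 1, ABCC4, without the filter. The call of UGT2B11 plus UGT2B28 was lost with the block (log2 fold change -1.45), with equal weight per cell (-1.28) and with any 1 library left out (-1.58 to -1.37). The log2 fold change of UGT2B11 lay between -1.76 and -1.31 over 13 alternatives, and those of the other members kept their sign in all 13 except that of UGT2B15, which was between -0.13 and 0.19. The cause of these differences was not tested. HSD3B1, with reads in 1 cell per library at most, ranged from 0.49 to 9.02. The small number of cells with reads also limits the precision for HSD17B6, AKR1C3 and UGT2B28.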
